A study of Mus musculus with 4 samples.

Results

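Cyclic AMP-dependent protein kinase (PKA) is encoded in the mouse by a small set of genes for catalytic subunits, regulatory subunits and protein kinase inhibitors. The 9 genes described here were chosen by gene symbol, as the PKA family, with earlier results of these data known, and they are 9 of the 51826 rows of the quadriceps count table. They are the catalytic subunits Prkaca and Prkacb, the regulatory subunits Prkar1a, Prkar1b, Prkar2a and Prkar2b, and the inhibitors Pkia, Pkib and Pkig. RNA was taken from the quadriceps of 2 wild-type (WT) and 2 Mef2dα2 exon knockout (Mef2dα2 Eko, here Eko) mice, and each mouse gave 1 polyA-selected library. All 4 were sedentary males of about 20 weeks of age on the C57BL6/J background, kept on standard chow, and the muscles were collected within the same hour. The Mef2dα2 Eko mice carry a germline CRISPR-Cas9 deletion of the α2 exon of Mef2d in every tissue, so the comparison is not restricted to muscle fibres. The study describes the WT and Eko mice as littermates, but the labels do not say which mice shared a litter or a founder line.

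In the resting PKA holoenzyme, a dimer of regulatory subunits holds a pair of catalytic subunits inactive. When receptors coupled to Gs activate adenylyl cyclases, cyclic AMP (cAMP) binds the regulatory subunits and the catalytic subunits become active, until phosphodiesterases degrade cAMP. The PKI proteins bind free catalytic subunits as pseudosubstrates and help to carry them out of the nucleus, and in skeletal muscle PKA acts on glycogen breakdown and calcium handling downstream of β-adrenergic receptors.

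The deleted exon is 1 of the mutually exclusive α exons of Mef2d, a MADS-box transcription factor gene on chromosome 3. As general background that the study does not address, phosphorylation by PKA makes the ubiquitous MEF2Dα1 isoform a repressor, whereas the muscle isoform MEF2Dα2 escapes it. The study reports from RT-PCR that Mef2d transcripts of Eko gastrocnemius and soleus muscles lacked the α2 exon and all used α1. Both exons are shown because they differ in a PKA consensus. They were read 5′ to 3′ from GENCODE transcripts on GRCm38, plus strand. The α1 exon lies at chr3:88158034-88158171 (138 bp) and the α2 exon at chr3:88158221-88158355 (135 bp). Capitals mark codons that spell a PKA consensus, namely a pair of basic residues, any residue and then serine or threonine. The α1 exon holds 1 such match, at chr3:88158127-88158138, and the α2 exon holds 0.
Mef2d alpha1 exon: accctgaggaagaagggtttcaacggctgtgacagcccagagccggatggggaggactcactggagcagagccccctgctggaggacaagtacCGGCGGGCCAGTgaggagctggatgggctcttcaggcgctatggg
Mef2d alpha2 exon: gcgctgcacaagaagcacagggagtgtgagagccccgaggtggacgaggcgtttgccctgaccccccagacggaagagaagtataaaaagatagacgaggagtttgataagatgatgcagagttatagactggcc

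The deposited values are counts for whole genes, so they do not separate the α exons and do not check the deletion. The level of Mef2d was 259 and 227 CPM in WT and 252 and 241 CPM in Eko muscle. Its log2 fold change was 0.02 ± 0.08 (the standard error of the fit, SE), and the genotypes overlapped. Exons of Mef2d overlap those of 1700113A16Rik on the other strand. The strand setting of the counting is not given, so the Mef2d counts are uncertain to that extent. Throughout, CPM are counts scaled to library totals with TMM factors, a log2 fold change is Eko over WT, and adjusted p-values are from edgeR's quasi-likelihood test over the 16120 genes that passed a filter on low counts.

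Library totals lay between 72626757 and 85176059 counts, and 3 counts, used as the floor for counting error alone, came to 0.0348 to 0.0419 CPM. None of the 8 myofibre markers was at 0 or passed the test, and their summed level, carried mostly by Myh4, was between 115567 and 120447 CPM. Below that sum, the type IIA and IIX myosin genes were lower in the Eko mice without overlap, Myh2 with a log2 fold change of -0.51 (adjusted p = 0.161) and Myh1 with -0.44 (adjusted p = 0.261), while Myh4 was at 0.07, and their part in the results was not tested. Of other cells in the muscle, all 4 macrophage markers were lower in the Eko mice (summed 17.7 and 14.7 CPM in WT, 12.3 and 8.53 CPM in Eko) and all 4 Schwann cell markers were higher (23.2 and 25.8 CPM against 28.6 and 34.7 CPM), with 0 called in either list. With 2 mice a genotype, exact permutation (two-sided) gives no p below 0.333, and calls therefore depend on the spread edgeR pools over genes.

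Within each PKA class the same gene was highest in every library, namely Prkaca, Prkar2a and Pkia. Per kilobase of annotated exon, Pkia had the highest level, at 169 and 191 CPM per kb in WT and 212 and 213 CPM per kb in Eko mice. Prkar2a was next, between 48.8 and 53.5 CPM per kb in the 4 libraries, followed by Prkaca between 37.0 and 40.7 and Prkar1a between 23.5 and 27.5 CPM per kb. The ranges of these 4 genes did not overlap. Pkig (8.64 to 10.9 CPM per kb) and Prkacb (7.59 to 8.17 CPM per kb) formed a second tier. Prkar2b (0.207 to 0.790 CPM per kb) and Prkar1b (0.156 to 0.268 CPM per kb) were far lower and overlapped each other. Pkib was at or near the floor of 3 counts, with 3, 2, 2 and 4 counts in the 4 libraries, so no fold is given for it. The order depends on the length used to scale each gene. Pkia and Prkar2a were first and second with exon, longest-transcript or coding length, but Prkacb stood above Pkig with the longest transcript, and Pkig and Prkar1a stood above Prkaca with coding length.

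**Figure D1:**
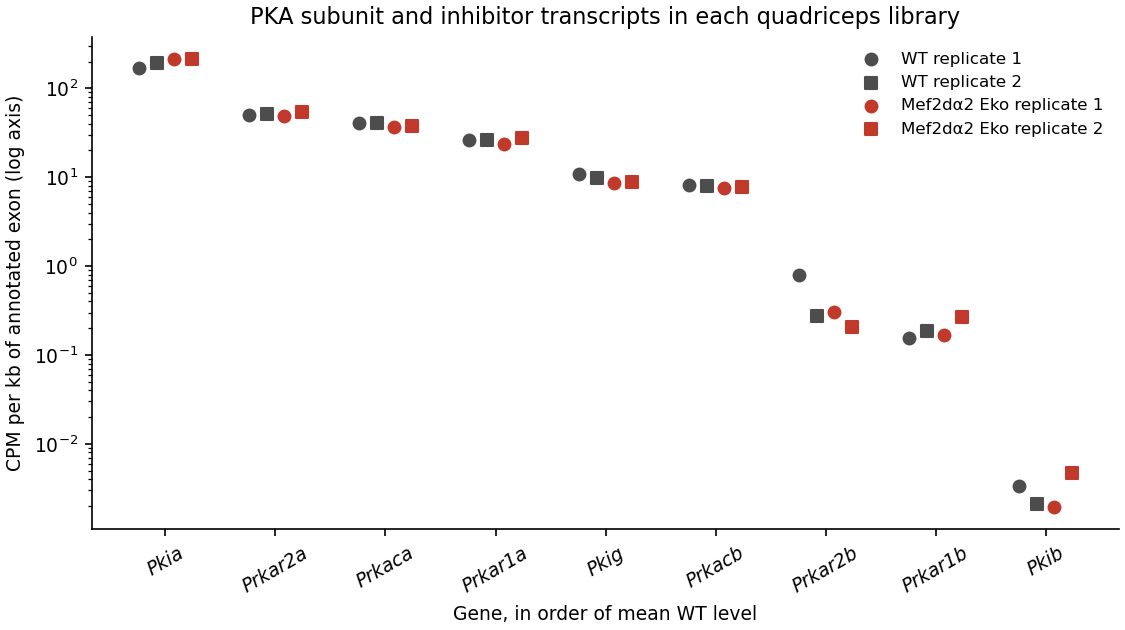
Level of each PKA gene in each library, in CPM per kilobase of annotated exon on a log axis, with genes in order of their mean WT level; points are single mice. Pkia was highest in every library, Prkar2b and Prkar1b overlapped, and Pkib rests on 2 to 4 counts a library.

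No PKA gene passed the adjusted threshold of 0.05 between the genotypes. Of the 9 genes, 8 passed the filter and 0 were called, by edgeR or by DESeq2, beside 67 of all 16120 genes tested, or 0.416%. With the unadjusted p below 0.05 there were 2 PKA genes, Pkia and Pkig, beside 11.6% of all genes. In 4 of the 8 the libraries of the genotypes did not overlap, as in 43.8% of all genes tested. The median absolute log2 fold change of the 8 was 0.18, against 0.14 over all genes.

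**Figure D2:**
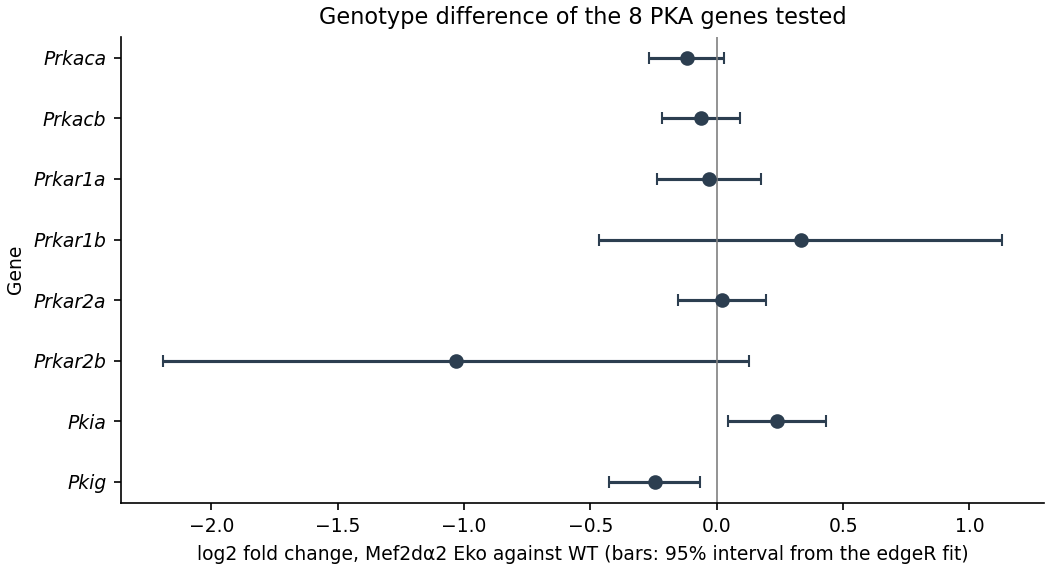
Log2 fold change, Eko against WT, of the 8 PKA genes tested, with the 95% interval from the edgeR fit. The intervals of Pkia (0.04 to 0.43) and Pkig (-0.43 to -0.07) leave out 0, although neither gene passed the adjusted threshold.

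Prkaca encodes the α catalytic subunit, the main PKA catalytic subunit of most tissues (chr8:83972993-83996443, plus strand, GRCm38). Its level was 101 CPM in each WT mouse and 92.0 and 94.3 CPM in Eko mice. The genotypes did not overlap, but the log2 fold change was only -0.12 (95% interval -0.27 to 0.03, adjusted p = 0.526), and with each library's trend with GC content removed it was -0.05. Prkacb encodes the β catalytic subunit (chr3:146729574-146812990, minus strand). It was measured at 71.7 and 69.7 CPM in WT and at 66.6 and 68.8 CPM in Eko mice. Its Eko values were also below both WT values, with a log2 fold change of -0.06 (95% interval -0.22 to 0.09, adjusted p = 0.763). As percentages, these intervals run from -17.0% to 2.15% for Prkaca and from -14.0% to 6.67% for Prkacb. Reads shared between these related genes, and with Prkx, were divided by RSEM's model, which could move counts from one to another.

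Among the regulatory subunits, Prkar2a encodes RIIα, which anchors PKA at membranes and cytoskeleton in muscle (chr9:108689314-108750436, plus strand). The WT mice had 317 and 326 CPM and the Eko mice 311 and 341 CPM. The Eko values lay on either side of the WT values, and the log2 fold change was 0.02 (95% interval -0.16 to 0.20, adjusted p = 0.943). Prkar1a encodes RIα, the most widely expressed regulatory subunit (chr11:109649405-109669656, plus strand). It stood at 112 and 113 CPM in WT and at 101 and 119 CPM in Eko mice. The Eko pair again enclosed the WT pair, with a log2 fold change of -0.03 (95% interval -0.24 to 0.18, adjusted p = 0.928).

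Prkar1b, for the neuronal regulatory subunit RIβ, was scarce, its WT libraries holding 45 and 58 counts and its Eko libraries 55 and 73 (chr5:139017306-139150001, minus strand). In CPM these were 0.593 and 0.717 against 0.638 and 1.02. The log2 fold change of 0.33 had a 95% interval from -0.47 to 1.13 (adjusted p = 0.751), so at this depth even a 2-fold difference lies within the interval. The gene shares exon sequence on its own strand with Gm15672, and its counts are uncertain to that extent.

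Prkar2b, for RIIβ, the regulatory subunit typical of fat and brain, had the widest difference of the members (chr12:31958476-32061296, minus strand). Its counts were 219 and 80 in WT against 97 and 54 in Eko mice, or 2.89 and 0.989 CPM against 1.13 and 0.755 CPM. WT replicate 1 stood apart, and WT replicate 2 lay between the Eko mice. The log2 fold change was -1.03 ± 0.49 (95% interval -2.19 to 0.13, adjusted p = 0.481). Without WT replicate 1 it was -0.07 (adjusted p = 0.979), and without WT replicate 2 it was -1.59 and passed the threshold (adjusted p = 0.0363). It also passed when edgeR was run with no filter on low counts (adjusted p = 0.00245), at a log2 fold change of -1.03.

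WT replicate 1 was also the highest library for 5 of the 6 adipocyte markers. Relative to WT replicate 1, Prkar2b was at 34.3% in WT replicate 2 and at 39.0% and 26.2% in the Eko mice. Plin1, for the perilipin coat of lipid droplets, was at 31.3%, 40.6% and 15.9% in the same order, and the lipid droplet gene Cidec at 40.3%, 40.9% and 13.2%. Adipoq, for the adipocyte hormone adiponectin, was at 49.0%, 49.2% and 20.4%, and Retn, for resistin, at 57.8%, 49.5% and 24.6%. The fatty acid carrier gene Fabp4 was also highest in WT replicate 1 but differed less, at 79.2%, 79.2% and 69.3%. The leptin gene Lep did not follow this pattern, at 83.5%, 185% and 25.7%. All 6 adipocyte markers were tested, 0 were called, 5 were lower in the Eko mice and none was at 0 in any library. Their summed level, carried mostly by Fabp4, was 120.0 and 83.4 CPM in WT and 86.7 and 66.0 CPM in Eko mice. The part of adipocytes in the Prkar2b values was not tested, and in such bulk RNA fewer cells of a type and less RNA per cell cannot be told apart.

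**Figure D3:**
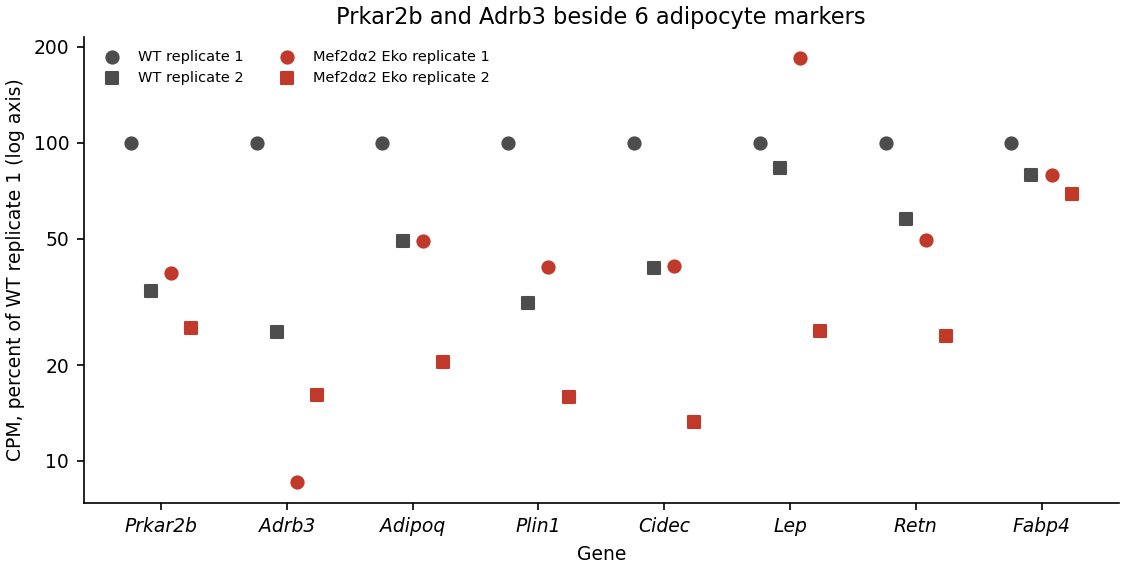
CPM of Prkar2b, of the β3-adrenergic receptor gene Adrb3 and of 6 adipocyte markers in each library, as a percent of WT replicate 1 on a log axis. WT replicate 1 was the highest library for every gene except Lep, which was at 185% in Eko replicate 1.

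The detected inhibitor genes differed between the genotypes in opposite directions, though neither was called. Pkia encodes PKIα, the main inhibitor of skeletal muscle (chr3:7366669-7445366, plus strand), with counts of 47838 and 57605 in WT against 68102 and 56746 in Eko mice. These were 630 and 712 CPM against 790 and 793 CPM, so both Eko mice were above both WT mice. The log2 fold change was 0.24 ± 0.08 (95% interval 0.04 to 0.43, adjusted p = 0.347), and the Eko mean was 118% of the WT mean. Leaving out single mice gave 0.15 to 0.34. With the GC trend removed it was 0.19, and the unadjusted p went from 0.0233 to 0.121.

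Pkig encodes PKIγ, a widely expressed inhibitor (chr2:163658386-163726158, plus strand). It stood at 43.3 and 39.4 CPM in WT and at 34.5 and 35.3 CPM in Eko mice, which were both below the WT mice. The log2 fold change was -0.25 ± 0.08 (95% interval -0.43 to -0.07, adjusted p = 0.301), and the Eko mean was 84.3% of the WT mean. Leaving out single mice gave -0.30 to -0.17. With the GC trend removed it was -0.18, and the unadjusted p went from 0.0148 to 0.0983. Pkib, for PKIβ, an inhibitor of testis and brain, was not tested.

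Summed within each class, the share of each class taken by its leading gene differed between the genotype means by 0.55 percentage points for Prkaca, 1.00 for Prkar2a and 1.52 for Pkia, and these differences were not tested against each other. Per kilobase of exon, Prkaca made up 83.3% and 83.6% of catalytic transcripts in WT and 83.0% and 82.9% in Eko mice. Prkar2a made up 64.9% and 65.8% of regulatory transcripts in WT and 67.1% and 65.7% in Eko mice, and Prkar1a most of the rest, at 33.8% and 33.6% against 32.3% and 33.7%. The ratio of type II to type I regulatory transcripts was 1.94 and 1.96 in WT and 2.08 and 1.94 in Eko mice, so the genotypes overlapped. Pkia made up 94.0% and 95.1% of inhibitor transcripts in WT and 96.1% and 96.0% in Eko mice.

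Inhibitor transcripts per catalytic transcript were 3.69 and 4.15 in WT and 4.96 and 4.85 in Eko mice. The genotypes did not overlap, and the means of 3.92 ± 0.325 and 4.91 ± 0.0725 (SD, n = 2) differed by 0.99, a difference that is described and not tested. Regulatory transcripts per catalytic transcript were 1.56 and 1.60 in WT and 1.63 and 1.78 in Eko mice, also without overlap. Levels of these ratios depend on the length used: with coding length, inhibitors per catalytic transcript were 18.9 and 21.4 in WT against 25.3 and 24.7 in Eko mice, and the Prkacb share went from 16.4% to 17.1% with exon length to between 37.8% and 39.1% with coding length. With exon, longest-transcript or coding length, and with no length correction, both Eko mice had more inhibitor transcript per catalytic transcript than both WT mice. In GC content, Pkia (39.1%) and Prkaca (54.9%) lie on either side of the median gene (49.6%), and the part of GC content in this ratio was not tested. The log2 fold change of Pkia minus that of Prkaca was 0.36, and 0.23 with the GC trend removed.

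**Figure D4:**
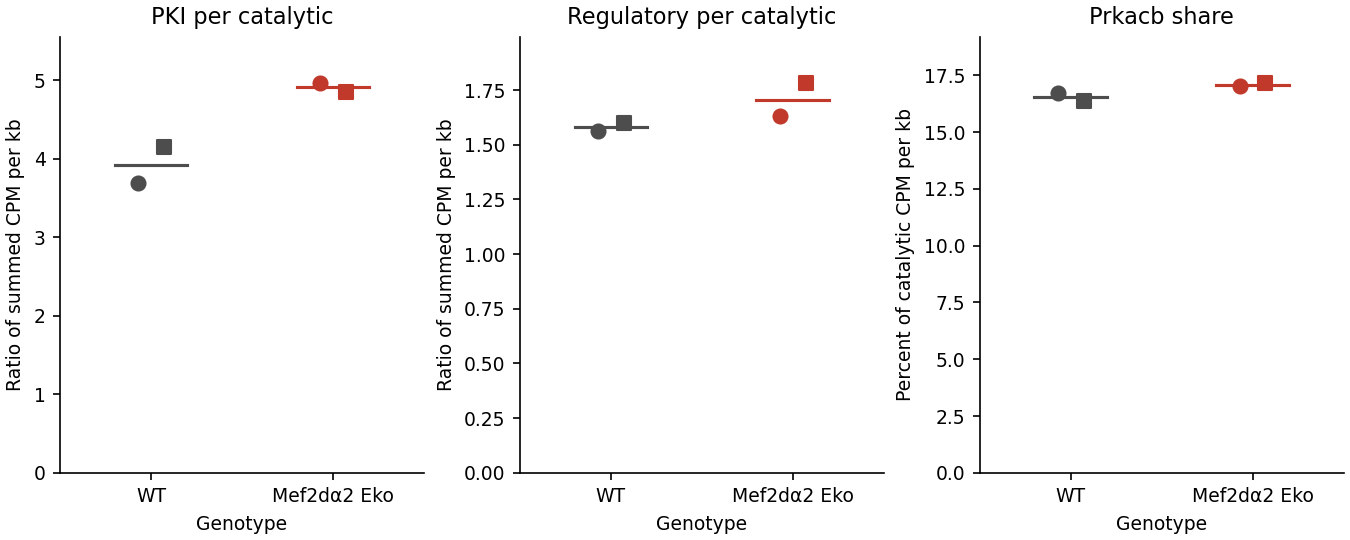
Ratio of summed inhibitor to catalytic transcripts, of regulatory to catalytic transcripts, and the Prkacb percent of catalytic transcripts, from CPM per kilobase of exon; points are single mice and lines are genotype means (n = 2). Inhibitor per catalytic was 3.69 and 4.15 in WT and 4.96 and 4.85 in Eko mice.

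Around the kinase, 96 other genes of the cAMP and PKA pathway were followed in lists, and 90 passed the filter. Only 1 was called, Pde8a, and in the lower direction, beside 0.310% of all genes tested that were called lower. With the unadjusted p below 0.05 there were 19 of the 90, beside the 11.6% given above for all genes. The median log2 fold change of the 90 was 0.02, against -0.01 over all genes.

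Pde8a encodes a phosphodiesterase that degrades cAMP with high affinity (chr7:81213596-81334533, plus strand). Its counts were 1050 and 921 in WT against 506 and 479 in Eko mice, or 13.8 and 11.4 CPM against 5.87 and 6.70 CPM. Both Eko mice were well below both WT mice, and their mean was 49.8% of that in WT. The log2 fold change was -1.01 ± 0.13 (95% interval -1.31 to -0.70, adjusted p = 0.0463). Leaving out single mice gave -1.13 to -0.86, past the threshold each time. Of 15 alternatives it was called in 14, and requiring 1 CPM or more in 2 libraries gave an adjusted p of 0.0565.

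The other 15 phosphodiesterase genes tested were not called. With the unadjusted p below 0.05 there were 2 of the 16, Pde8a and Pde4a, beside 11.6% of all genes. Pde4a, named for this count, was at 86.1 and 68.0 CPM in WT and 62.8 and 55.2 CPM in Eko mice, without overlap. Its log2 fold change was -0.38 (SE 0.12, adjusted p = 0.317), and it was called with no filter on low counts. Pde4d and Pde4b, which encode cAMP-specific enzymes inhibited by rolipram, are named for their high CPM, which is not corrected for length. Pde4d had 112 and 124 CPM in WT and 116 and 148 CPM in Eko mice, and Pde4b 62.5 and 84.7 against 63.9 and 106 CPM, so both overlapped between the genotypes. Pde8b, the close relative of Pde8a, stood at 1.71 and 1.38 CPM in WT and 1.55 and 1.58 CPM in Eko mice, a log2 fold change of 0.02 (SE 0.21), and it was looked up after the Pde8a values were seen.

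**Figure D5:**
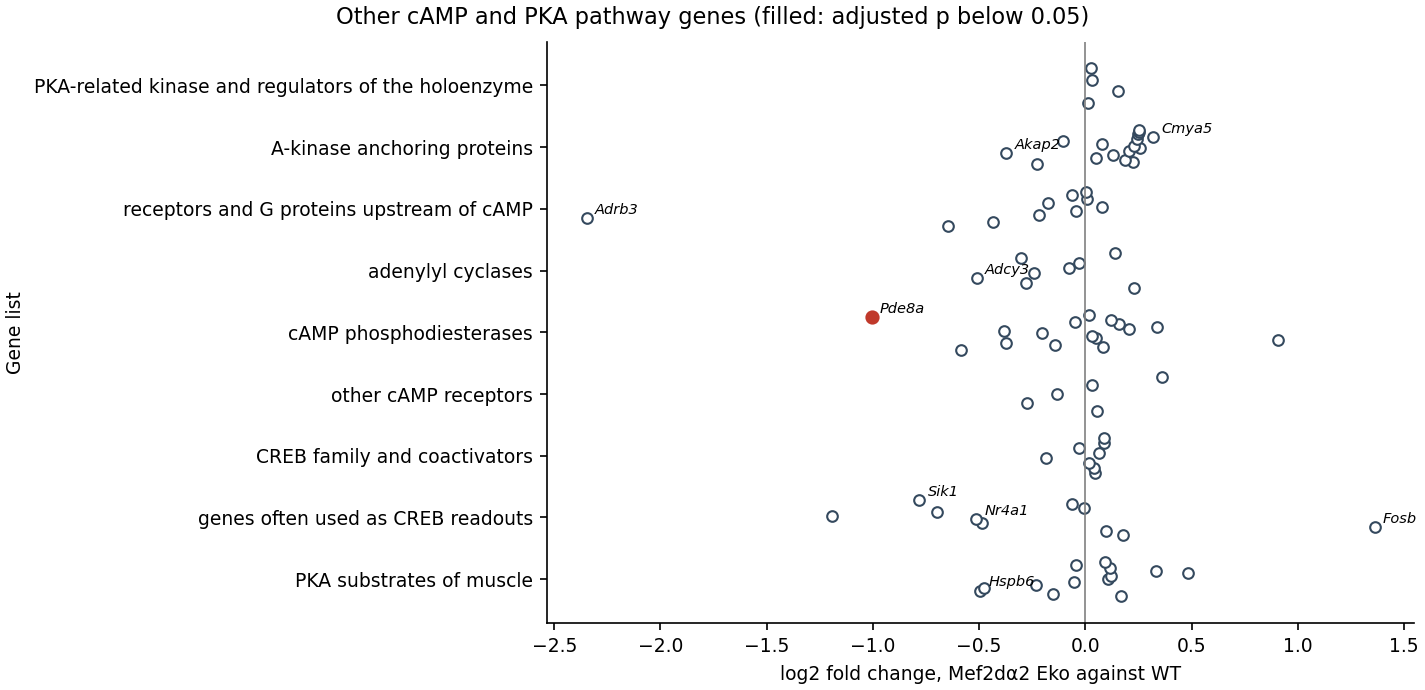
Log2 fold change, Eko against WT, of the 90 other pathway genes tested, 1 point a gene, by list; a filled point passed the adjusted threshold and open points did not. Pde8a at -1.01 was the only gene called, and 13 of 16 anchoring protein genes, 3 of 10 receptor and G protein genes and 2 of 8 cyclase genes lay above 0, beside 48.7% of all genes tested.

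A-kinase anchoring proteins bind regulatory subunits and place PKA beside its targets. Of 19 genes, 16 were tested, 0 were called, 13 had a log2 fold change above 0 and 7 an unadjusted p below 0.05, and the median was 0.21. Over all genes tested these were 48.7% above 0, 11.6% with an unadjusted p below 0.05 and a median of -0.01. With the GC trend removed, 13 were still above 0, 5 had an unadjusted p below 0.05 and the median was 0.17. Cmya5, for the large sarcomere-associated anchoring protein myospryn, stood at 4455 and 4711 CPM in WT and 5417 and 6008 CPM in Eko mice (log2 fold change 0.32, SE 0.09, adjusted p = 0.265). Pde4dip, for the Golgi and centrosome protein myomegalin, was at 2890 and 2887 CPM against 3387 and 3464 CPM (0.25, SE 0.07, adjusted p = 0.297). In the other direction, Akap2 was at 77.6 and 90.1 CPM in WT and 60.0 and 69.5 CPM in Eko mice (-0.37, SE 0.10, adjusted p = 0.262). In each of these 3 genes the genotypes did not overlap. DESeq2, which called 318 genes in all against 67 with edgeR, called Cmya5 (adjusted p = 0.0166) and Pde4dip (adjusted p = 0.0250), and edgeR with no filter on low counts, which called 799, called Akap2 (adjusted p = 0.000953) and Cmya5.

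Upstream of cAMP, all 10 receptor and G protein genes were tested, and 0 were called by edgeR or DESeq2. An unadjusted p below 0.05 was found in 2, beside 11.6% of all genes. Log2 fold changes above 0 were found in 3, and in 4 with the GC trend removed. Gnas, which encodes the stimulatory G protein subunit Gαs, held between 622 and 635 CPM in all 4 libraries, and Gnai2, for an inhibitory Gα subunit, between 42.0 and 44.9 CPM. Adrb3, for the β3-adrenergic receptor of fat, was counted 92 and 25 times in WT against 9 and 14 times in Eko mice. Its log2 fold change of -2.35 had a SE of 0.73 (adjusted p = 0.298). As with Prkar2b, WT replicate 1 was far above the rest, and without that mouse the log2 fold change of Adrb3 was -1.05. It was called with no filter on low counts and without WT replicate 2, where it was -3.01.

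Of 10 adenylyl cyclase genes, 8 were tested and 0 were called by edgeR or DESeq2. An unadjusted p below 0.05 was found in 1, beside 11.6% of all genes. Log2 fold changes above 0 were found in 2, and in 4 with the GC trend removed. Adcy2 was at 39.98 and 35.6 CPM in WT and at 30.9 and 31.5 CPM in Eko mice, without overlap (log2 fold change -0.28, SE 0.08, adjusted p = 0.280). Adcy9 overlapped, between 41.5 and 57.6 CPM, and Adcy3 had the largest log2 fold change of the list, -0.51 ± 0.30, at 0.503 to 0.857 CPM. The 5 other cAMP receptors also had 0 calls with either tool, and 1 had an unadjusted p below 0.05, beside 11.6% of all genes. Popdc2, for a popeye domain protein that binds cAMP in muscle membranes, was at 71.2 and 56.3 CPM in WT and 51.0 and 54.4 CPM in Eko mice without overlap (-0.27, SE 0.11). Without WT replicate 1 it was -0.09, and without WT replicate 2 it was -0.42 and was called (adjusted p = 0.0465). Its relative Bves was between 54.5 and 61.5 CPM, with overlap, and Rapgef4, for the cAMP-activated exchange factor EPAC2, between 1.09 and 1.67 CPM (0.36, SE 0.25), where leaving out single mice gave 0.11, without Eko replicate 1, to 0.57, without Eko replicate 2.

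PKA phosphorylates the transcription factor CREB, and genes with CREB sites are often used as a readout of its activity. The 8 genes of the CREB family and its coactivators were all tested, 0 were called by edgeR or DESeq2, 0 had an unadjusted p below 0.05, and log2 fold changes lay between -0.19 (Crem) and 0.09. The coactivator gene Ep300 was between 77.6 and 89.2 CPM, and Atf1 between 43.6 and 46.7 CPM. The 10 readout genes had 0 calls by edgeR, 2 by DESeq2 and 3 with an unadjusted p below 0.05, all lower in the Eko mice. Over all 16120 genes tested, DESeq2 called 318, and 11.6% had an unadjusted p below 0.05 with edgeR. The list median was -0.27, beside -0.01 over all genes.

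Nr4a1, an immediate early nuclear receptor gene induced by β-adrenergic signals and by exercise in muscle, had the lowest adjusted p of the genes of these lists that were not called. It was at 195 and 178 CPM in WT and at 126 and 135 CPM in Eko mice, without overlap (log2 fold change -0.51, SE 0.08, adjusted p = 0.0619). It passed in 8 of 15 alternatives, among them DESeq2 (adjusted p = 7.36e-06), and with the GC trend removed it was -0.42 (adjusted p = 0.153). Sik1, for a salt-inducible kinase induced by cAMP, was looked up after its values were seen, at 15.3 and 19.9 CPM in WT and 10.1 and 10.4 CPM in Eko mice (-0.78, SE 0.13, adjusted p = 0.0923). Sik1 passed in 9 of 15 alternatives, among them all 4 that left out a mouse, and with the GC trend removed it was -0.71 (adjusted p = 0.0516). Nr4a2 (-1.19, SE 0.39), also singled out after its values were seen, was the remaining readout gene with an unadjusted p below 0.05. Of the 10 readout genes, 7 had a log2 fold change below 0 and 3 above 0, beside 48.7% above 0 over all genes tested. The circadian gene Per1 was between 47.1 and 66.5 CPM with overlap, and its log2 fold change of -0.01 was close to 0. Fosb had 1.11 and 0.309 CPM in WT and 3.49 and 0.0839 CPM in Eko mice, and its log2 fold change of 1.36 (SE 1.20) was -3.03 without Eko replicate 1.

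Of 13 muscle genes whose proteins PKA phosphorylates, all were tested and 0 were called by edgeR. DESeq2 called 3, beside 318 of all 16120 genes. The unadjusted p was below 0.05 in 3, beside 11.6% of all genes. Both counts hold the same 3 genes, Hspb6 lower in the Eko mice and Ppp1r1a and Ppp1r3a higher. Ppp1r1a (log2 fold change 0.48, adjusted p = 0.226) and Ppp1r3a (0.33, adjusted p = 0.186), named for these counts, did not overlap between the genotypes. Pygm, for the glycogen phosphorylase of muscle, was between 5595 and 6079 CPM and overlapped between the genotypes (log2 fold change -0.04, SE 0.08). Ryr1, for the calcium release channel, was between 4072 and 4644 CPM and overlapped (0.09, SE 0.09). Hspb6, for the small heat shock protein HSP20, was at 986 and 774 CPM in WT and at 675 and 573 CPM in Eko mice, without overlap (-0.50, SE 0.13, adjusted p = 0.246), and it passed in 6 of 15 alternatives. Among other regulators of the holoenzyme, 4 of 5 genes were tested, 0 were called by edgeR or DESeq2, and 0 had an unadjusted p below 0.05. The related kinase Prkx (10.5 to 11.6 CPM), the ubiquitin ligase gene Pja2, whose product degrades regulatory subunits (154 to 162 CPM), and the receptor and anchoring gene Gpr161 (1.06 to 1.45 CPM) all overlapped between the genotypes, with log2 fold changes of 0.03, 0.03 and 0.16.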

How the data were processed

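Quadriceps polyA RNA of 2 WT and 2 Mef2dα2 Eko mice was sequenced from stranded libraries. The authors aligned reads to mm10 (STAR 2.6.1a in the submitters' processing notes), and ran RSEM with Ensembl gene models (GRCm38), and the expected counts they deposited carry no normalization. The strand setting of the counting is not given in the sources used here. All deposited values were exactly whole numbers, with no tolerance applied (values not whole: 0), so rounding for edgeR changed none.

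Counts were compared in R 4.3.3 by edgeR 4.0.16 (quasi-likelihood test, TMM factors), after its default filter had left 16120 of 24621 detected genes, and Benjamini-Hochberg adjustment at 0.05. Library totals were between 72626757 and 85176059 counts. The labels give genotype and replicate number. The p-values set genotype differences against the spread between these mice, which edgeR pools over genes. No library pair was alike within counting noise (chi-square per degree of freedom 38.7 to 230.3). Lengths, GC content and positions came from GENCODE release M21, which holds 92.1% of the row symbols.

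The members and lists were chosen with earlier results of these data known. All 9 members are named, with Mef2d and, of every other list, genes called, the 2 with the highest mean CPM and the tested gene with the largest absolute log2 fold change; other genes named are marked. Alternatives were DESeq2 1.42.0 with and without independent filtering, edgeR's likelihood ratio test, limma-voom (limma 3.58.1), RLE and upper-quartile normalization, no filter, a filter of 1 CPM in 2 libraries, a replicate block, removal of a GC trend, and each mouse left out; edgeR's newer quasi-likelihood method was added after seeing the data. Protein sequences, exon-level reads and the study's other assays were not used in the comparisons here.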

Additional observations from a re-analysis of the deposited data

How the results depend on the processing

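No PKA gene was called under 13 of 15 alternatives, and Prkar2b was the 1 member called with no filter on low counts and without WT replicate 2. Over all genes, 67 calls became 318 with DESeq2, 309 without its independent filtering, 312 with the likelihood ratio test, 799 with no filter, 23 with a filter of 1 CPM in 2 libraries and between 99 and 299 with a mouse left out. The calls that were lower made up 74.6% of the 67 but 58.5% with DESeq2, 57.5% without WT replicate 2, 62.1% with no filter and 63.5% with the likelihood ratio test. The pathway count of 1 (Pde8a) became 8 with either DESeq2 setting, 4 with the likelihood ratio test, 16 with no filter, 0 with the 1 CPM filter, 2 with the newer edgeR method and between 2 and 10 with a mouse left out. The cause of these changes was not tested. With a mouse left out, the lone mouse of a genotype is assumed to vary like the others, and Prkar1b, Adrb3 and Adcy3 have no value under the 1 CPM filter.

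With the replicate number as a block, 186 genes, 0 members and 5 pathway genes (Pde8a, Nr4a1, Nr4a3, Sik1 and Hspb6) were called. The study calls the mice littermates, but no label ties a replicate number to a litter, and deviations of same-numbered mice from their genotype means correlated at 0.09, so whether the numbers pair the mice is not known.

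Several genes that were not called changed sign. With a mouse left out, log2 fold changes ranged from -0.147 to 0.0930 for Prkar1a, -0.0392 to 0.651 for Prkar1b, -0.0480 to 0.0991 for Prkar2a, -0.0406 to 0.118 for Prkx, -0.0375 to 0.395 for Gpr161, -0.00601 to 0.0345 for Gnas, -0.0499 to 0.376 for Adcy9, -0.204 to 0.537 for Pde4b, -0.0235 to 0.338 for Pde4d, -0.0131 to 0.144 for Bves, -0.371 to 0.0410 for Crem, -0.0161 to 0.199 for Ep300, -0.264 to 0.218 for Per1, -3.03 to 2.55 for Fosb, -0.0758 to 0.00130 for Pygm and -0.0614 to 0.115 for Mef2d. With the GC trend removed they were -0.0107 for Pja2, 0.0440 for Gnai2, 0.0863 for Per1 and 0.0290 for Pygm. Over all genes, log2 fold change and GC content had a Spearman correlation of -0.21 across genes, which are not independent replicates.

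Of the transcript balances, the Eko minus WT difference in the Prkaca share was -0.94 percentage points with coding length and -0.96 with no length correction, and that of Prkacb 0.94 and 0.96, against -0.55 and 0.55. The difference in Prkaca per Prkacb was -0.11 with the longest transcript, -0.0633 with coding length and -0.0559 with no length correction, against -0.20. The difference in inhibitor per catalytic transcripts was 4.84 with coding length.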
